A study of Mus musculus with 8 samples.

Results

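The genes described here are the interferon and interleukin 10 receptor chains that lie side by side on distal mouse chromosome 16, their partner chains and kinases on other chromosomes, and the antiviral genes Mx1 and Mx2. A probe belonged to them when its RefSeq accession is paired with 1 of the 10 gene symbols in RefSeq's gene table for GRCm38.p6. This gave 10 of the 55681 non-control probes, for 8 of the 10 genes: 3 probes for Ifnar1 and 1 each for Ifnar2, Il10rb, Ifngr2, Ifngr1, Il10ra, Jak1 and Tyk2. No probe was paired with Mx1 or Mx2 in that table, which annotates both as transcribed pseudogenes in C57BL/6J. No values are given here under their names. Probes with accessions that the table does not hold stayed unnamed, and probes of Mx1 and Mx2 may be among them. Unnamed probes that were well above background were tested as features too. All 10 probes were well above background on all 8 arrays, so that each of the 8 genes was tested among 24025 features, of which 15089 were named genes.

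Hippocampal RNA was measured on 4 arrays of Ts1Cje mice and 4 arrays of wild-type mice, all 3 months old and of strain C57BL6/J by their labels. Ts1Cje, a model of Down syndrome, has in every cell an extra copy of chromosome 16 from Sod1 towards its distal end, where 1 copy of Sod1 is disrupted, and lacks the distal end of 1 chromosome 12. The wild-type littermates carry neither change. Ifnar1, Ifnar2, Il10rb and Ifngr2 therefore have 3 copies in Ts1Cje mice and 2 in wild-type mice, whereas Ifngr1, Il10ra, Jak1 and Tyk2 have 2 in both.

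Interferons and interleukin 10 act through receptors built of different chains, each of which holds a Janus kinase on its inner side. Ligand binding brings the chains together, the kinases phosphorylate STAT proteins, and these enter the nucleus and switch on target genes. IFNAR1, which holds TYK2, and IFNAR2, which holds JAK1, form the receptor for type I interferons. IFNGR1 binds interferon gamma and holds JAK1, while IFNGR2 holds JAK2 and completes the receptor. IL10RA binds interleukin 10 and holds JAK1, and IL10RB holds TYK2 and is shared with the receptors for interleukin 22 and the lambda interferons. In the brain these receptors are known above all for microglial and antiviral responses.

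Levels are given as log2 of the background-corrected signal, with the 75th percentile of all probes on the same array set to 0, and a step of 1 is a 2-fold difference. Levels of different probes are not comparable with each other. The share of probes well above background was 59.9% to 63.1% across the arrays. The tissue markers fixed for neurons (4 of 4) and for hippocampal granule and pyramidal cells (6 of 6) were above background on all 8 arrays. Of the 24025 features, 42 were called higher in Ts1Cje, 0.175%, and 5 lower, 0.0208%, at a Benjamini-Hochberg adjusted p under 0.05 with limma. There were 47 calls in all, and with quantile normalization 47 higher and 13 lower. Leaving out Ts1Cje replicate 4, 2 or 3 gave 13, 19 and 25 calls in that order, and leaving out wild-type replicate 4 or 2 gave 24 and 28. The design speaks of 4 littermate pairs, and the labels number the replicates without giving animals or pools, so p-values measure the spread between these samples. In whole tissue, more cells of a type and more RNA per cell cannot be told apart.

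Both chains of the type I interferon receptor rose in Ts1Cje hippocampus, as did the second chain of the interferon gamma receptor. These were 3 of the 8 genes tested, all higher, against the 0.175% of all features. The fourth chain with 3 copies, Il10rb, was higher by a similar amount but did not pass the threshold, and none of the 4 genes with 2 copies passed it in either direction. For all 4 chains with 3 copies the lowest Ts1Cje array lay above the highest wild-type array, a separation found in that direction for 2.42% of all features. It was also found for 41 of the 60 other tested named genes from Sod1 to the end of chromosome 16, so it is not particular to these chains.

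Ifnar2, the high-affinity interferon-binding chain, stood at 2.04, 1.82, 1.88 and 1.86 in Ts1Cje replicates 1 to 4 and at 1.29, 1.10, 1.13 and 1.13 in wild-type replicates 1 to 4. The groups were apart by at least 0.53, more than the range within either. Its mean was 1.90 ± 0.09 in Ts1Cje and 1.16 ± 0.08 in wild type (SD, n = 4 each), a log2 fold change of 0.73 (SE 0.07, 95% interval 0.58 to 0.89, adjusted p = 0.0078), or 1.66-fold. Replicate 1 was the highest array of both groups, and the call held when any 1 array was left out, with log2 fold changes of 0.69 to 0.78. The limma adjusted p was then 0.021 to 0.0498, at its highest only just under the threshold.

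Ifnar1, the other chain of that receptor, stood at 2.07, 2.14, 2.01 and 2.15 in Ts1Cje mice and at 1.41, 1.57, 1.35 and 1.55 in wild-type mice on its brightest probe. The 4 arrays of each group lay close together and the groups did not overlap. The means were 2.09 ± 0.07 in Ts1Cje and 1.47 ± 0.11 in wild type (SD, n = 4 each), a log2 fold change of 0.63 (SE 0.07, 95% interval 0.47 to 0.78, adjusted p = 0.0112), or 1.54-fold. The call was lost without Ts1Cje replicate 2 (log2 fold change 0.61, adjusted p = 0.065) and without Ts1Cje replicate 4 (0.61, adjusted p = 0.060).

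The other probes of Ifnar1 were far dimmer but gave nearly the same change. The second stood at -1.55, -1.38, -1.49 and -1.57 in Ts1Cje mice and at -2.32, -2.15, -2.10 and -2.12 in wild-type mice. The third stood at -2.47, -2.78, -2.80 and -2.56 in Ts1Cje mice and at -3.31, -3.44, -3.38 and -3.11 in wild-type mice. Neither overlapped between the groups. With every kept probe fitted as a feature of its own, the log2 fold changes of the 3 probes were 0.63, 0.67 and 0.66, with SE of 0.07, 0.07 and 0.10 and adjusted p of 0.0142, 0.0137 and 0.063. In that fit 4 of the 10 probes rose, against 0.169% of the 32596 kept probes. Probes of 1 gene read the same transcripts and are not independent. The 4 probe calls became 0 without Ts1Cje replicate 2, 3 or 4 and 2 without wild-type replicate 1 or 4, and the lowest adjusted p among the 10 probes was then between 0.0475 and 0.064.

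Ifngr2, the signalling chain of the interferon gamma receptor, stood at 3.26, 3.25, 3.22 and 3.35 in Ts1Cje mice and at 2.72, 2.76, 2.68 and 2.80 in wild-type mice. It had the smallest spread of the 4 chains and groups at least 0.42 apart. The means were 3.27 ± 0.06 in Ts1Cje and 2.74 ± 0.05 in wild type (SD, n = 4 each), a log2 fold change of 0.53 (SE 0.05, 95% interval 0.42 to 0.65, adjusted p = 0.0081), or 1.45-fold. Leaving out any 1 array kept the call, at 0.51 to 0.55, with limma adjusted p of 0.021 to 0.0498, at its highest only just under the threshold.

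Il10rb, the accessory chain of the interleukin 10 receptor, stood at -0.82, -0.98, -1.05 and -0.84 in Ts1Cje mice and at -1.33, -1.49, -1.51 and -1.77 in wild-type mice. All Ts1Cje arrays were above all wild-type arrays, and the wild-type arrays were spread more widely. The means were -0.92 ± 0.11 in Ts1Cje and -1.52 ± 0.18 in wild type (SD, n = 4 each), a log2 fold change of 0.60 (SE 0.10, 95% interval 0.37 to 0.83, adjusted p = 0.080), or 1.52-fold. It passed with normexp background correction (0.46, adjusted p = 0.028) and with a trended and robust variance prior (0.60, adjusted p = 0.048). With any 1 array left out it did not pass, at adjusted p of 0.077 to 0.27.

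**Figure D1:**
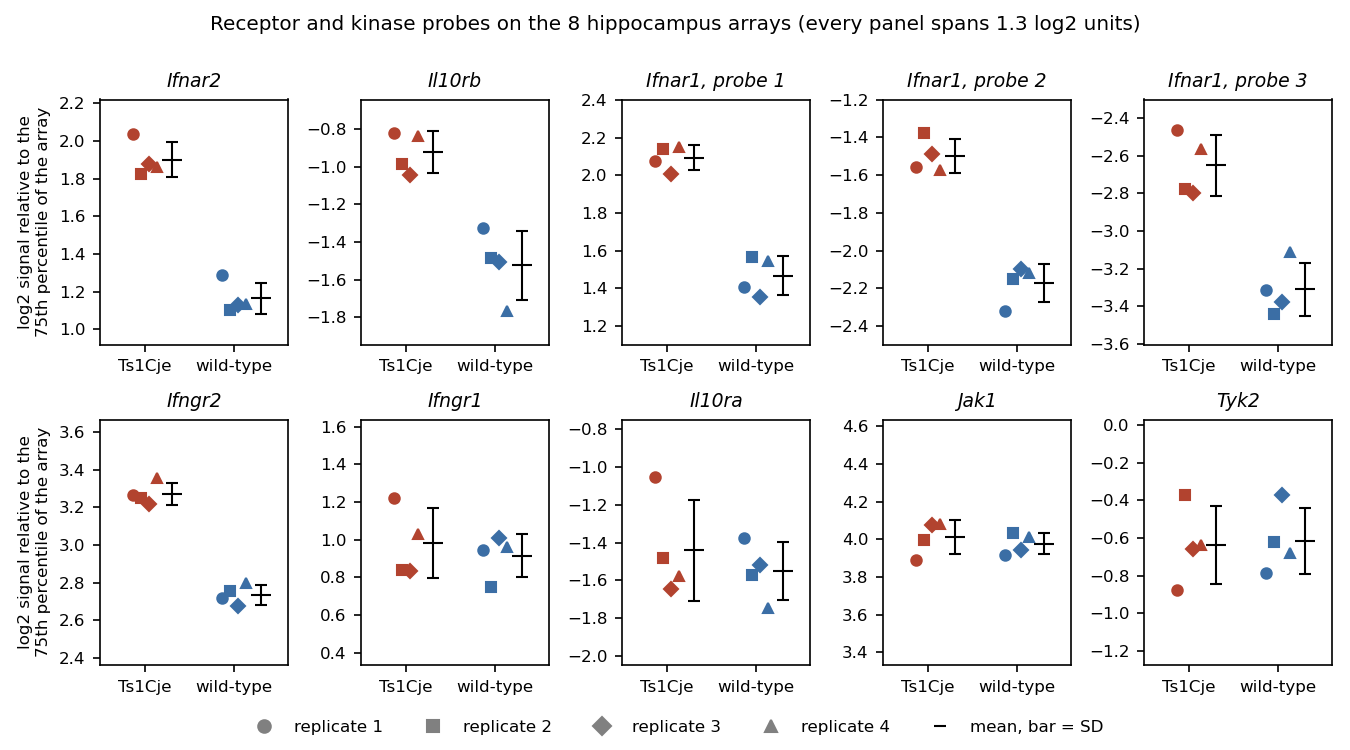
Signal of the 10 probes on each array (log2, 75th percentile of its array at 0), Ts1Cje left and wild-type right in every panel, with the mean and SD of 4 arrays as a bar. The 6 probes of Ifnar2, Il10rb, Ifnar1 and Ifngr2 show 2 separate groups of points, and the probes of Ifngr1, Il10ra, Jak1 and Tyk2 show overlapping ones.

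The partner chains and kinases with 2 copies overlapped between the groups. Ifngr1, the ligand-binding chain for interferon gamma, stood at 1.22, 0.84, 0.84 and 1.03 in Ts1Cje mice and at 0.95, 0.75, 1.01 and 0.96 in wild-type mice. Its log2 fold change was 0.07 (SE 0.10, 95% interval -0.16 to 0.30, adjusted p = 0.86). Ts1Cje replicate 1 was the highest of the 8 arrays, and without it the value was -0.01.

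Il10ra, the ligand-binding chain for interleukin 10, stood at -1.05, -1.48, -1.65 and -1.58 in Ts1Cje mice and at -1.37, -1.57, -1.52 and -1.75 in wild-type mice. Its log2 fold change was 0.11 (SE 0.14, 95% interval -0.20 to 0.43, adjusted p = 0.82). Ts1Cje replicate 1 was again the highest array, and without it the value was -0.02. On that array the summed level of the 8 endothelial markers was 6.20, against 5.61 to 5.73 on the other Ts1Cje arrays and 5.40 to 5.69 in wild-type mice. The summed level of the 8 microglial markers was 7.28 there, against 7.27 to 7.37 on the other Ts1Cje arrays and 7.16 to 7.41 in wild-type mice. The mean log2 level of these markers was 2.94 to 3.08 in wild-type mice and 2.96 to 3.07 on the other Ts1Cje arrays. On Ts1Cje replicate 1 it was 2.91, the lowest of the 8 arrays. The summed level of the 4 oligodendrocyte markers was 7.13 there, the lowest of the 8 arrays, against 7.49 to 7.69 on the other Ts1Cje arrays and 7.55 to 7.60 in wild-type mice. The part of these cell types in the values of that array was not tested.

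Jak1, the kinase held by IFNAR2, IFNGR1 and IL10RA, stood at 3.89, 4.00, 4.08 and 4.08 in Ts1Cje mice and at 3.92, 4.04, 3.94 and 4.01 in wild-type mice. Its log2 fold change was 0.03 (SE 0.06, 95% interval -0.10 to 0.17, adjusted p = 0.88), and -0.02 with the array median as centre. This was the narrowest interval of the 4 genes with 2 copies.

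Tyk2, the kinase held by IFNAR1 and IL10RB, stood at -0.87, -0.37, -0.66 and -0.64 in Ts1Cje mice and at -0.79, -0.62, -0.37 and -0.68 in wild-type mice. The ranges of the groups were nearly the same. Its log2 fold change was -0.02 (SE 0.12, 95% interval -0.30 to 0.26, adjusted p = 0.97), and its sign turned with Ts1Cje replicate 1 left out (0.06) or wild-type replicate 3 left out (0.06).

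On the log2 scale 3 copies over 2 are 0.58. The 95% intervals of all 4 chains with 3 copies held that value and excluded 0, that of Ifnar2 only just at its lower end. The intervals of all 4 genes with 2 copies held 0 and excluded the ratio of 3 to 2. Ordered by log2 fold change among the 64 tested named genes from Sod1 to the end of chromosome 16, Ifnar2 was at place 4, Ifnar1 at 14, Il10rb at 17 and Ifngr2 at 23. The median log2 fold change of the 4 chains was 0.61, against 0.48 for the other 60 genes of the segment, of which 23 were called higher and none lower, and -0.01 for all features.

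In gene order the receptor cluster runs Ifnar2, Il10rb, Ifnar1, Ifngr2, with no other tested named gene in between. On the side towards Sod1 its nearest tested neighbours are Olig1 and Olig2, transcription factors of the oligodendrocyte lineage, whose log2 fold changes were 0.21 (SE 0.10, adjusted p = 0.61) and 0.11 (SE 0.07, adjusted p = 0.66). On the distal side Tmem50b, which encodes a membrane protein, rose by 0.56 (SE 0.05, adjusted p = 0.0078), and Dnajc28, of the DnaJ family, stood at 0.32 (SE 0.19, adjusted p = 0.65). The 95% interval of Olig1 reached up to 0.44 and that of Olig2 up to 0.26. The interval of Olig2 lay below those of all 4 receptor chains, whereas that of Olig1 overlapped those of Il10rb and Ifngr2. The differences between the chains and these neighbours were not tested.

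**Figure D2:**
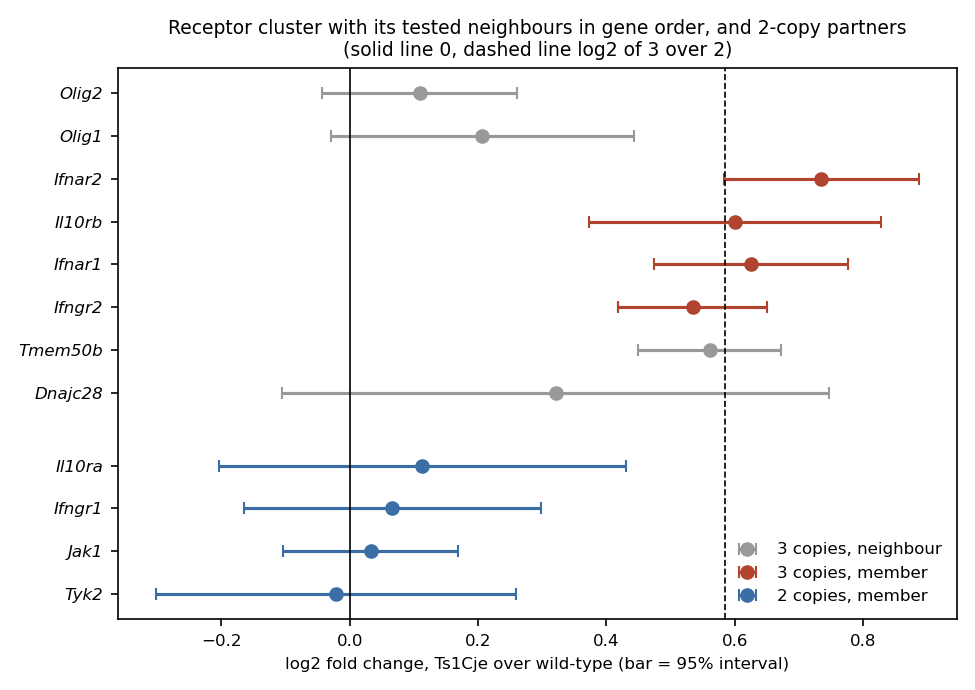
Log2 fold change of Ts1Cje over wild-type with its 95% interval for the 4 receptor chains and their 2 nearest tested neighbours on each side, in gene order from top to bottom, and below them the 4 members with 2 copies. The chains lie around the dashed line at log2 of 3 over 2 (0.58) and the 2-copy members around 0.

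The promoters of the 3 chains that rose are shown. No promoter was available for Il10rb, which lies between Ifnar2 and Ifnar1, or for Il10ra. Each sequence is RefSeq's for GRCm38.p6, plus strand, from 250 bases before to 50 bases after the annotated start: chr16:91372533-91372832 for Ifnar2, chr16:91484965-91485264 for Ifnar1 and chr16:91546809-91547108 for Ifngr2. The capitals mark matches to the motif TTCNNNGAA, the GAS element that STAT dimers bind.
Ifnar2: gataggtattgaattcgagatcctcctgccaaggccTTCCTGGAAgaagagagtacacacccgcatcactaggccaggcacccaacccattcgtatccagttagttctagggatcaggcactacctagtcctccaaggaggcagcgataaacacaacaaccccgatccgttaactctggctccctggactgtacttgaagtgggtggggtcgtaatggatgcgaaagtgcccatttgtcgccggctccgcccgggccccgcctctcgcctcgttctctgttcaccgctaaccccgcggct
Ifnar1: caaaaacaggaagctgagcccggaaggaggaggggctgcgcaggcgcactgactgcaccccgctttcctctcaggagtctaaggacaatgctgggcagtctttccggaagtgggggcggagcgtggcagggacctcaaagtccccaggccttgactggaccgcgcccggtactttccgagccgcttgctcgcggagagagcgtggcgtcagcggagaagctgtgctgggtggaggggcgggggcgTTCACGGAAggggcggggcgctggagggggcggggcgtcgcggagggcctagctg
Ifngr2: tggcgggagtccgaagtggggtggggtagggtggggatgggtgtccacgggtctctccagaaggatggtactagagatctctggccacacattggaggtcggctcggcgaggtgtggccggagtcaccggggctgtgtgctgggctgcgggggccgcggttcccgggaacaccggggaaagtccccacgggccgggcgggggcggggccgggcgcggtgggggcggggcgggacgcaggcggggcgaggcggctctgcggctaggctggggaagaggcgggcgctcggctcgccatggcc
Ifnar2 and Ifnar1 each held 1 match to the motif, which is its own reverse complement, starting 214 and 5 bases before the annotated start. Ifngr2 held none. Among all 32851 promoters of that length in the table, 8.30% held such a match on either strand. The motif GAAANNGAA, the core of the ISRE element through which type I interferons act on their target genes, was in none of the 3 on either strand and in 8.56% of all promoters. The promoters of Ifngr1, Jak1 and Tyk2 held neither motif. GC content was 57.0% in Ifnar2, 68.3% in Ifnar1 and 74.3% in Ifngr2, against a median of 52.7% over all promoters.

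The balance between chains was compared within each array, where a shared shift of the array cancels. The log2 difference between 2 genes was taken on every array and its mean set between the groups with an exact permutation test, two-sided, over the 70 ways to assign the arrays, which can give no p below 0.0286. There were 10 such comparisons, chosen with the values above known, and p-values were adjusted over them. Each 3-copy chain gained on its 2-copy partner on the arrays of Ts1Cje mice, without overlap between the groups, but with 10 comparisons the 4 at the smallest p reached only an adjusted p of 0.071.

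Ifngr2 minus Ifngr1, the chains of the interferon gamma receptor, was 2.29 ± 0.17 in Ts1Cje and 1.82 ± 0.14 in wild type (SD, n = 4 each), a difference of 0.47 (SE 0.11, exact permutation p = 0.0286). Il10rb minus Il10ra, the chains of the interleukin 10 receptor, was 0.52 ± 0.21 in Ts1Cje and 0.03 ± 0.05 in wild type, a difference of 0.49 (SE 0.11, exact permutation p = 0.0286). In both pairs Ts1Cje replicate 1 was the array closest to wild type. Against the kinases, Ifnar2 minus Jak1 was -2.11 ± 0.17 in Ts1Cje and -2.81 ± 0.13 in wild type, a difference of 0.70 (SE 0.11). Ifnar1 minus Tyk2 was 2.73 ± 0.19 in Ts1Cje and 2.08 ± 0.24 in wild type, a difference of 0.65 (SE 0.15). The exact permutation p of these last comparisons was 0.0286 as well.

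The 4 chains with 3 copies could not be told apart from each other in how much they differed between the genotypes. Ifnar2 minus Ifnar1, the chains of the type I receptor, was -0.19 ± 0.13 in Ts1Cje and -0.30 ± 0.16 in wild type, a difference of 0.11 (SE 0.10, exact permutation p = 0.34, adjusted p = 0.43). The widest gap was that of Ifnar2 over Ifngr2, at -1.37 ± 0.11 in Ts1Cje and -1.57 ± 0.11 in wild type, a difference of 0.20 (SE 0.08, exact permutation p = 0.057, adjusted p = 0.11). The other 4 pairs differed by 0.03 to 0.13, with exact permutation p between 0.11 and 0.89. With 4 arrays a group these values do not show that the chains changed alike.

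**Figure D3:**
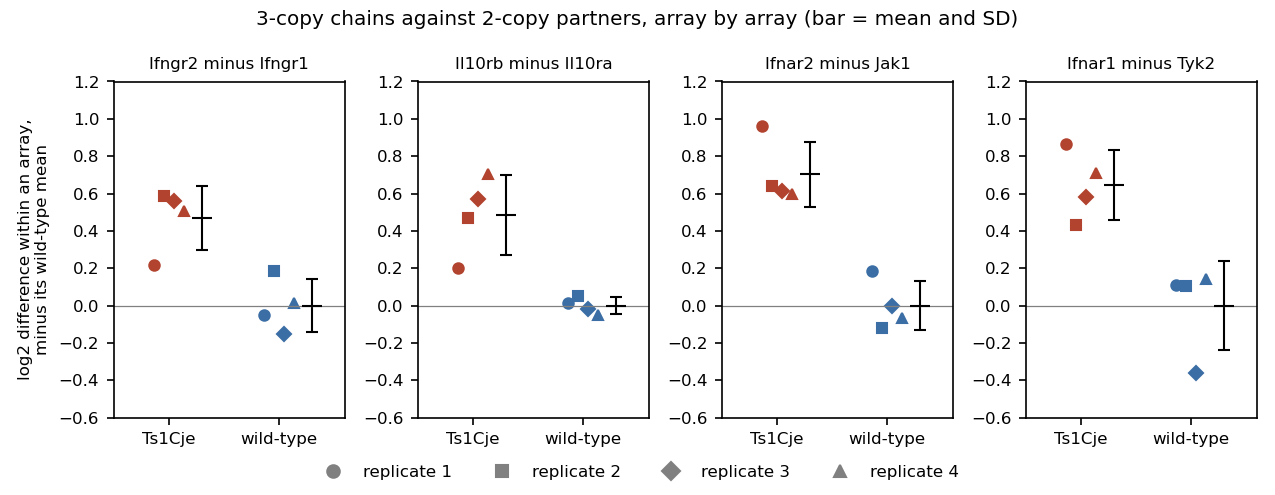
Log2 difference between a 3-copy chain and its 2-copy partner within each array, set to 0 at the wild-type mean, Ts1Cje left and wild-type right, with the mean and SD of 4 arrays as a bar and symbols for replicates 1 to 4. All Ts1Cje points lie above all wild-type points in the 4 panels, by mean differences of 0.47, 0.49, 0.70 and 0.65.

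The genes whose values ran most like those of the type I receptor chains were mostly other genes of the triplicated segment. Likeness was the root mean square difference over the 8 arrays between values centred on the gene's own mean, over 15078 named genes. Values centred in this way keep the difference between the genotypes. Genes with a similar log2 fold change therefore come near by construction, and the likeness adds little to the fold changes. Nearest to Ifnar1 were the protein kinase gene Dyrk1a (0.055), Pcp4, which encodes a calmodulin regulator (0.056), and Dop1b (0.063), all of the segment. Nearest to Ifnar2 were Sod1, which encodes superoxide dismutase (0.066), then Rnf207 on chromosome 4 (0.089) and Dyrk1a (0.098). Rnf207, which encodes a RING finger protein, has 2 copies in both genotypes and stood at a log2 fold change of 0.72 (adjusted p = 0.0502).

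Of 57 other genes of the pathway, none of which lies in the triplicated or the deleted segment, 35 could be tested and none passed the threshold (limma, lowest adjusted p 0.32). Without adjustment 4 of the 35 had a p under 0.05, 2 higher and 2 lower, against 8.73% of all features in either direction. Their median log2 fold change was -0.0017, with 17 above and 18 below 0.

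Among 26 ligands, 21 had a probe and 9 were tested, the others being too dim to count as above background in either group. They ranged from -0.37 to 0.19. The smallest p were those of the interferon alpha genes Ifna1 (0.19, SE 0.11, adjusted p = 0.64) and Ifna2 (-0.37, SE 0.26, adjusted p = 0.69), of which Ifna2 was above background on 3 of 4 Ts1Cje arrays and 4 of 4 wild-type arrays. Interferon alpha genes are near-identical copies, so the signal of each may include the others. Of the 5 genes listed with related receptors, Il20rb alone was tested and stood at 0.06 (SE 0.11, adjusted p = 0.88).

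The kinase held by IFNGR2, Jak2, averaged 1.38 ± 0.05 in Ts1Cje mice and 1.52 ± 0.08 in wild-type mice (SD, n = 4 each), a log2 fold change of -0.15 (SE 0.06, adjusted p = 0.53), and the groups overlapped. Jak3, a kinase of lymphoid cytokine receptors, stood at 0.27 (SE 0.23, adjusted p = 0.74). Of the STAT genes and Irf9, all 8 were tested, 6 above 0, with a median of 0.11. Irf9, which encodes a DNA-binding partner of STAT proteins, averaged 0.55 ± 0.15 in Ts1Cje mice and 0.29 ± 0.18 in wild-type mice, a log2 fold change of 0.26 (SE 0.11, adjusted p = 0.56).

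Of 16 negative regulators, 15 were tested, 5 above and 10 below 0, with a median of -0.01. Usp18, which displaces JAK1 from IFNAR2, averaged -2.15 ± 0.24 in Ts1Cje mice and -2.64 ± 0.13 in wild-type mice (SD, n = 4 each), a log2 fold change of 0.49 (SE 0.12, adjusted p = 0.32), and its arrays did not overlap, against 2.42% of all features in that direction. Btrc, a ubiquitin ligase subunit that targets IFNAR1, stood at -0.15 (SE 0.06, adjusted p = 0.53).

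**Figure D4:**
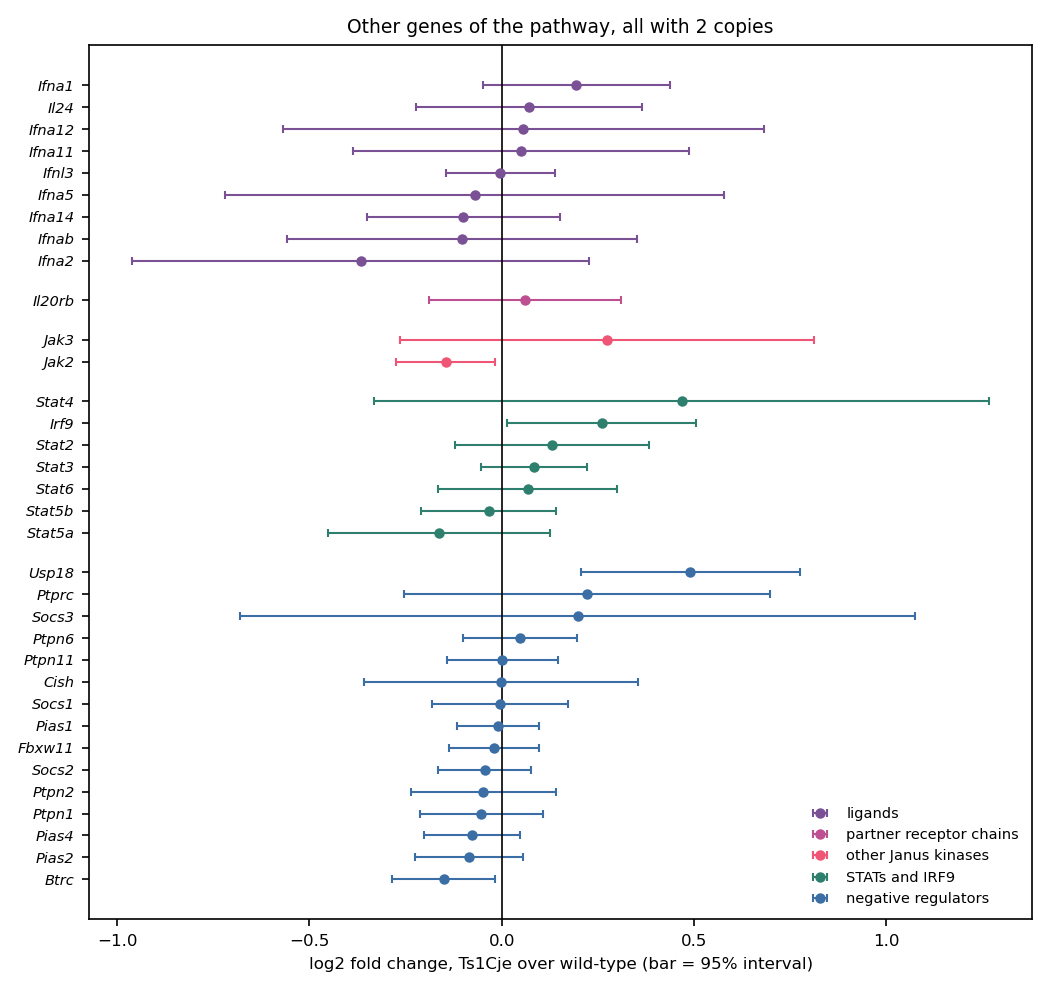
Log2 fold change of Ts1Cje over wild-type with its 95% interval for tested pathway genes with 2 copies, coloured by role and ordered by value within a role. Their values lie between -0.37 (Ifna2) and 0.49 (Usp18), and none passed the threshold.

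Genes that interferons are known to induce were counted as a list of 43, of which 41 were tested. None was called, 33 stood above 0 and 8 below, with a median log2 fold change of 0.16, against 11372 of 24025 features above 0 and a median of -0.01. An unadjusted p under 0.05 was found for 10, all higher, against 4.15% of all features in that direction. The smallest p was that of Oas2, an antiviral RNA-sensing enzyme gene (0.72, SE 0.10, adjusted p = 0.053), followed by the exonuclease gene Isg20 (0.32, SE 0.08, adjusted p = 0.34). An upward shift of such genes in these arrays was known when the list was made, so the count is no independent evidence. The 8 endothelial markers had a median of 0.10, the 8 microglial markers a median of -0.02, and none of either was called. Their part in these values was not tested.

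The arrays lay on 1 slide in 2 rows, each with 2 arrays of either genotype. Within the first row and the second, the log2 difference of Ts1Cje from wild type was 0.73 and 0.74 for Ifnar2, 0.62 and 0.63 for Ifnar1, 0.52 and 0.55 for Ifngr2, and 0.50 and 0.70 for Il10rb. Those of Ifngr1 (0.19 and -0.05), Jak1 (-0.03 and 0.10) and Tyk2 (0.08 and -0.12) changed sign between the rows, and Il10ra gave 0.20 and 0.02. Each slide column held 1 genotype, and the effects of column and genotype cannot be told apart.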

How the data were processed

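Total RNA of hippocampus was labelled with Cy3 and hybridised to 1-colour Agilent arrays, 1 per sample, per the labels' protocols. The deposited values are intensities per spot, which the authors obtained with Agilent Feature Extraction 10.10.1.1, per the file headers. The processed signal is corrected for background and not normalized between arrays. The probes were designed on mm9. The deposited flags, other columns per spot, mark outliers, saturation and signal well above background.

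Spots of controls and outlier spots were dropped, and none was saturated. Log2 processed signals were averaged per probe and set relative to the 75th percentile of their array. The 32596 probes kept were well above background throughout 1 group or both (4 arrays), and the brightest of them stands for its gene. Gene order came from GRCm38.p6, whose coordinates are printed for promoters only.

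Ts1Cje was compared with wild type across all genes by limma 3.58.1 under R 4.3.3 (lmFit, eBayes, no block), with Benjamini-Hochberg adjustment over all features. On simulated data of 24025 features, drawn from the measured means and SDs, the fit called 70.0% of 100 features changed 1.5-fold and 92.0% of 100 changed 2-fold, with 12 calls among the 23825 unchanged. The simulated noise was normal and independent between features, and the number of changed features was set. These shares need not hold for the measured data. Alternatives were normexp (offset 50, on median signals), centring on the array median, quantile normalization, a trended and robust prior, other filters and probe rules, the replicate number as a block, and leaving out each array. The slide row as a block was added after the data were seen. Exact permutation tests ran in scipy 1.17.1 and plots in matplotlib 3.10.9.

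The members and lists were chosen with earlier results of these data known. Named were all 10 members, of each pathway list the called genes and the 2 of smallest p, the 2 induced genes of smallest p, 2 tested neighbours on each side of the cluster, and the 3 genes most like Ifnar1 and Ifnar2. 1 pathway gene that this rule names is not reported here or plotted. Precision is limited by there being 4 arrays per group.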

Additional observations from a re-analysis of the deposited data

Results flagged for a closer look

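Wild-type replicate 1 stood apart from the other wild-type arrays for Ifnar2, at 1.29 against 1.10 to 1.13 (log2, 75th percentile of its array at 0). Its gap to the nearest array was 0.835 of the range of the group, above Dixon's 95% critical value for 4 samples. Without this array the log2 fold change of Ifnar2 was 0.78 (limma adjusted p = 0.031), against 0.73 with it. Of the 20 sets of 4 arrays examined for the 10 probes, this was the 1 that passed, where chance gives about 1 in 20.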

How the results depend on the processing

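Ifnar2, Ifnar1 and Ifngr2 stayed higher under all alternatives, and Ifnar2 and Ifngr2 lost their calls only with the replicate block. The series describes 4 littermate pairs, but no label ties equal replicate numbers to a pair. Deviations of equally numbered arrays from their group means correlated at 0.24, 0.19, 0.11 and 0.05, and Ts1Cje replicate 3 and wild-type replicate 4 correlated best with another number. With the replicate number as a block, 0 members, 0 member probes and 1 of all features were called (limma), though 4 members and 6 probes had an unadjusted p under 0.05. Adjusted p was then 0.056 for Ifnar2 and 0.087 for Ifnar1 and Ifngr2. Their log2 fold changes were unchanged by the block and their SEs were smaller. These were 0.040 against 0.066 for Ifnar2, 0.043 against 0.066 for Ifnar1 and 0.041 against 0.051 for Ifngr2. Against 47 features, 25 were called with the array median as centre, 23 with no filter on dim probes and 71 with the trended and robust prior; leaving out an array gave 13 to 44. With no filter, 0 member probes passed (lowest adjusted p 0.068, 6 with an unadjusted p under 0.05), and leaving out an array gave 0 to 4. The causes were not tested, except that more features enter the adjustment without the filter. The replicate block also leaves fewer degrees of freedom for the variance. Values near 0 changed sign: Jak1 was -0.018 with the median centre and Tyk2 0.016 with normexp. With an array left out, Ifngr1 ranged between -0.014 and 0.11, Il10ra between -0.017 and 0.18, and Tyk2 between -0.11 and 0.059. The slide row as a block changed no member's call. No pathway gene was called in any setting.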
